A study of Rattus norvegicus with 8 samples.

Results

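A set of 10 genes of extracellular nucleotide and adenosine signaling was examined in rat thymocytes treated with the synthetic glucocorticoid dexamethasone. They were chosen by gene name on the array and comprise the ATP-gated channels P2rx1, P2rx4 and P2rx7, the G protein-coupled nucleotide receptors P2ry1 and P2ry2, the adenosine receptors Adora2a and Adora2b, the cell surface enzymes Entpd1 (CD39) and Nt5e (CD73), and adenosine deaminase, Ada. All 10 genes were on the array, and 14 of its 41012 probes carried their names. Thymocytes came from adrenalectomized male Sprague-Dawley rats, with the thymi of 3 rats pooled for a preparation, and the cells were kept for 6 hours in medium alone on 4 arrays, called Control, or in medium with dexamethasone at 100 nM on 4 others, called Dex. Surgery, pooling, medium and culture time were common to both groups, so the groups differed by label in dexamethasone alone. Adrenalectomy removes the main endogenous source of glucocorticoids, and the cultures were suspensions of whole thymus passed through a mesh, with no sort for thymocytes. RNA was read on Agilent Whole Rat Genome arrays with 1 color.

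ATP that leaves a cell opens P2X channels and activates P2Y receptors. Entpd1 cleaves ATP and ADP to AMP, Nt5e cleaves AMP to adenosine, adenosine acts on its own receptors, Adora2a and Adora2b among them, and Ada ends that signal by converting adenosine to inosine. The thymus is rich in Ada, whose inherited loss causes severe combined immunodeficiency, and P2X receptors, adenosine receptors and glucocorticoids have each been linked to the death of thymocytes.

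Each probe is a single DNA strand of 60 bases. The sequences below belong to Ada, the member with the smallest p, and to the overlapping probe pair of Entpd1, whose Dex minus Control differences were 0.40 and 1.04 on the log2 scale. The Entpd1 probes A_44_P214479 at chr1:246001758-246001817 and A_43_P12252 at chr1:246001772-246001831 (build rn3, plus strand) share the 46 bases that are set in capitals. The Ada probe A_43_P13102 lies at chr3:154543361-154543420 on the minus strand of rn3. The other Ada probe, A_44_P434541, spans 1787 bases of the genome, chr3:154543964-154545750, so its 60 bases are split between separate genomic blocks.
Entpd1 A_44_P214479: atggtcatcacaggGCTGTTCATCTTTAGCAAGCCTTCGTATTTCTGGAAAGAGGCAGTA
Entpd1 A_43_P12252: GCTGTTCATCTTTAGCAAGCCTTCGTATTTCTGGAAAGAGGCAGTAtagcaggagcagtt
Ada A_43_P13102: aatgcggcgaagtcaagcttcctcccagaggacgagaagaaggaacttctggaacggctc
Ada A_44_P434541: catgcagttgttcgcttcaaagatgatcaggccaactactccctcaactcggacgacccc

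Promoters were taken from RefSeq (GRCr8), where 9 of the 10 genes had an entry that runs from 250 bases before to 50 bases after the transcription start. The pair printed here is shown because their genes had opposite differences between Dex and Control, P2rx1 higher and Ada lower. The P2rx1 stretch (280 bases, chr10:58116857-58117136, plus strand) has in capitals its match to TGTTCT, the hexamer that the glucocorticoid receptor binds, and the Ada stretch (280 bases, chr3:172842254-172842533, minus strand) has in capitals its GGGCGG boxes.
P2rx1 promoter: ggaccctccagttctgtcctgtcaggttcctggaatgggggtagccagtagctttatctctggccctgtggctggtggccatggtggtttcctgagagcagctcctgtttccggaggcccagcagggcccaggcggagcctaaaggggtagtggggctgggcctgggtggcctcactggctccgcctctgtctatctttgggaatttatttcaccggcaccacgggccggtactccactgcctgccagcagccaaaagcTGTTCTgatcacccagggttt
Ada promoter: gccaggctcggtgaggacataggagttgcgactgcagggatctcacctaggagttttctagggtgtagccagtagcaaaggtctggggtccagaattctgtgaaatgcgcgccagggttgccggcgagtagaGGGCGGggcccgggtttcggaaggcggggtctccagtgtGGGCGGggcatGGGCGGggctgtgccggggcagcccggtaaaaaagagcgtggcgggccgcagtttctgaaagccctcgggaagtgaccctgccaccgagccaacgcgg

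TGTTCT, or AGAACA for the other strand, was present in 2 of the 9 promoters, P2rx1 at base 260 and P2ry1 at base 20, against 20.7% of all 33469 rat promoters of the same length. The full palindrome, AGAACA and TGTTCT with 3 bases between them, was in 5 promoters of the table and in none of the 9. The GC box, GGGCGG or CCGCCC, was in 6 of the 9 and in 33.1% of all promoters. A match to these letters describes the window and is no measured binding.

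All levels below are normalized log2 signals, which compare one probe between arrays and not one probe with another. Differences are Dex minus Control on the same scale, and a gene is represented by its brightest probe. None of the 10 members passed limma's threshold (adjusted p below 0.05 over all probes), which 0.778% of all probes passed. At an unadjusted limma p below 0.05, which 10.6% of probes met, 1 member was higher in Dex (P2rx1) and 2 were lower (Adora2a and Ada). The same 3 were the members whose Control and Dex arrays did not overlap, as was true of 9.11% of all probes. They were also the members past the methods' signal to noise criterion as recomputed here, which 2784 probes, or 6.79%, passed. The paper reports far fewer genes as differentially expressed by its own computation. A pass here thus does not show that a gene passed in the paper. The median difference was 0.10 over the members and 0.00 over all probes, of which the 5th to 95th percentiles were -0.75 to 0.72. Since these are bulk RNA samples, fewer cells of a type and less RNA per cell cannot be told apart.

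**Figure D1:**
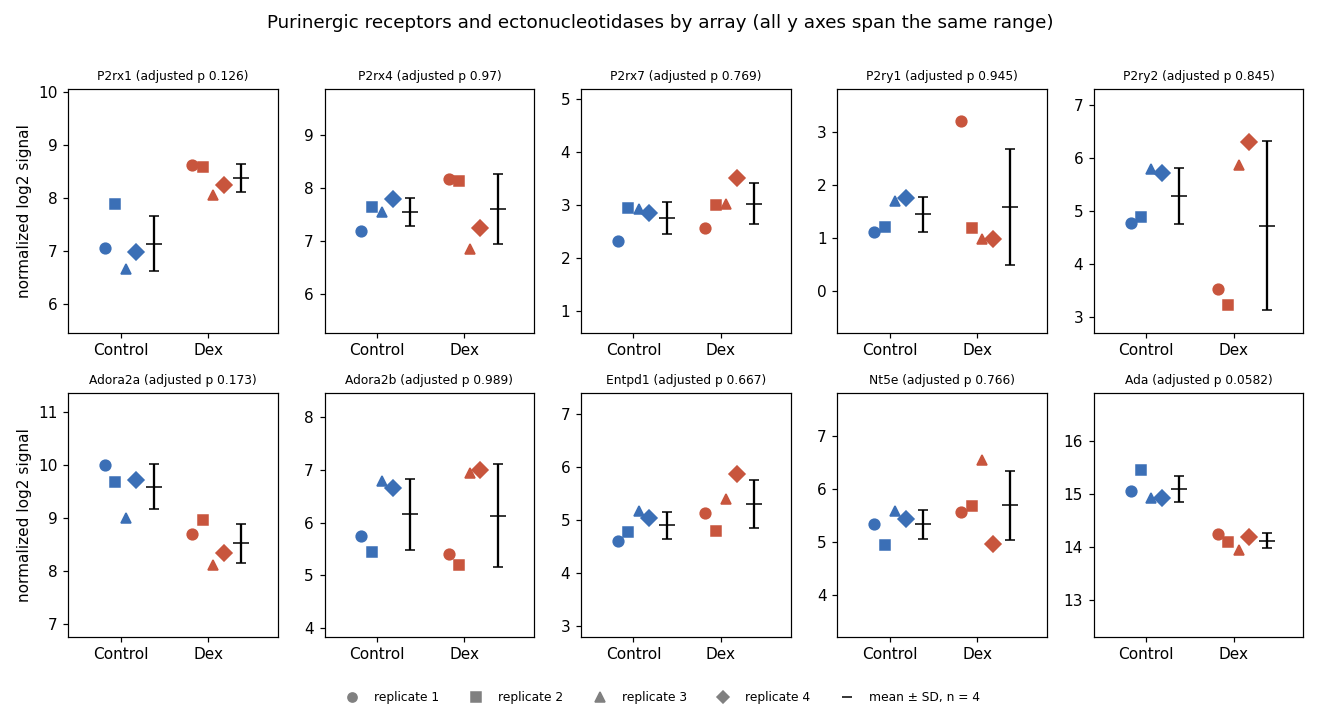
Normalized log2 signal (y axis) of the brightest probe of each of the 10 genes in the 4 Control (blue) and 4 Dex (red) arrays, with the replicate number as the symbol and the mean ± SD in black. Dex lies above Control on every array for P2rx1 and below it for Adora2a and Ada, while Dex 1 and Dex 2 lie away from Dex 3 and Dex 4 for P2rx4, P2ry2 and Adora2b.

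P2rx1, a rapidly desensitizing ATP-gated cation channel, was the channel with the larger difference. Its levels were 7.05, 7.88, 6.65 and 6.98 in Control 1 to 4 and 8.63, 8.58, 8.06 and 8.25 in Dex 1 to 4. Every Dex array lay above every Control array, and the probe was well above background on all 8. The Control mean was 7.14 ± 0.52 (SD, n = 4), against a Dex mean of 8.38 ± 0.27 (SD, n = 4). The difference of 1.24 (SE 0.28, 95% interval 0.59 to 1.89), or 2.36-fold, had an adjusted p of 0.126 in limma. It was 1.31 among the 6 arrays scanned on one day and 1.01 between Control 1 and Dex 3, the 2 scanned on another day.

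P2rx4, a channel that is also found in lysosomes, had Control levels of 7.18, 7.64, 7.54 and 7.79. Dex 1 and Dex 2, at 8.16 and 8.12, were above all Control arrays, while Dex 3, at 6.85, was below them and Dex 4 was at 7.23. The difference was 0.06 (95% interval -0.70 to 0.81; limma adjusted p = 0.97). It was 0.18 among the arrays of the first scan day and -0.33 between Control 1 and Dex 3.

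P2rx7, the channel that high ATP opens into a large conductance linked to lymphocyte death, was dim. Its probe was printed 10 times on each array and was well above background on 2 Control and 2 Dex arrays. Control levels were 2.31, 2.94, 2.91 and 2.84, and Dex levels were 2.55, 2.99, 3.02 and 3.50. The groups overlapped, with a difference of 0.27 (95% interval -0.30 to 0.83; limma adjusted p = 0.769). Without 1 array it ran from 0.10, without Dex 4, and 0.12, without Control 1, to 0.42, without Dex 1. The SD over the spots of one array ran from 0.22 to 0.76.

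P2ry1, an ADP receptor, was not well above background on any array, so no fold is given. Its levels were 1.10, 1.2, 1.7 and 1.75 in Control and 3.21, 1.19, 0.97 and 0.97 in Dex. Dex 1 stood apart from the other 7 arrays. P2ry2, which responds to ATP and UTP and serves as a find-me receptor on phagocytes, had Control levels of 4.77, 4.89, 5.78 and 5.71. Its Dex levels were 3.52, 3.21, 5.87 and 6.30. Dex 1 and Dex 2 lay below every Control array and Dex 3 and Dex 4 above every one, and the probe was well above background on all Control arrays, Dex 3 and Dex 4 but not on Dex 1 and Dex 2. The difference of -0.56 (95% interval -2.24 to 1.12) had a limma adjusted p of 0.845, and without 1 array it ran from -1.09, without Dex 4, to -0.05, without Dex 2. Without Dex 1 and Dex 2, which had the fewest probes well above background, it was 0.80. Without Dex 3 and Dex 4 the probe passed limma's threshold (adjusted p = 0.0233), on Dex arrays where it was not well above background. With the lowest signal well above background on Dex 1 and Dex 2, 4.06 and 4.44, in its place, P2ry2 was 2.04-fold below the Control mean on these arrays. That lowest signal was 2.32 to 3.66 on the other arrays. The fold thus depends on the low end of Dex 1 and Dex 2 and was given no error. Both selections were made after the data had been seen.

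Adora2a encodes the adenosine receptor best known in T cells, which raises cyclic AMP. Its brighter probe, A_44_P1034950 at chr20:13816081-13816140 (rn3), was printed 10 times. The levels were 10.00, 9.68, 9.00 and 9.73 in Control 1 to 4 and 8.71, 8.96, 8.12 and 8.34 in Dex 1 to 4. All Dex arrays lay below all Control arrays, and the SD over the spots of an array was 0.01 to 0.07, smaller than the spread between arrays of a group. The difference was -1.07 (SE 0.27, 95% interval -1.70 to -0.44), or 2.10-fold lower in Dex, with a limma adjusted p of 0.173. By scan day it was -0.80 among the 6 arrays and -1.88 between Control 1 and Dex 3.

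The dimmer Adora2a probe, A_42_P664121, lies nearby on the same transcript (chr20:13816299-13816358, rn3) and gave a difference of -1.18 (95% interval -2.10 to -0.26; limma adjusted p = 0.326). Its levels were 7.78, 6.89, 6.58 and 7.33 in Control and 6.17, 6.88, 5.46 and 5.35 in Dex. Dex 2 lay within the Control range. The 2 probes differed by -0.11 in this value, which the arrays' spread covered (exact two-sided permutation p = 0.686, adjusted 0.823 over 6 probe pairs).

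Adora2b, the adenosine receptor of lower affinity, had levels of 5.75, 5.44, 6.79 and 6.66 in Control and 5.40, 5.19, 6.94 and 6.99 in Dex. In each group the arrays numbered 1 and 2 were below those numbered 3 and 4. The difference was -0.03 (95% interval -1.23 to 1.16; limma adjusted p = 0.989), and it was -0.44 among the arrays of the first scan day and 1.19 between Control 1 and Dex 3.

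The 3 Entpd1 probes all had positive differences, of unequal size. The brightest, A_44_P214479, had levels of 4.60, 4.76, 5.17 and 5.03 in Control and 5.13, 4.78, 5.39 and 5.86 in Dex. The probe was well above background on 4 Control and 3 Dex arrays. The groups overlapped, and the difference was 0.40 (SE 0.26, 95% interval -0.19 to 0.99; limma adjusted p = 0.667). It was 0.21 without Dex 4, 0.07 without Dex 3 and Dex 4, 0.73 without Dex 1 and Dex 2, and 0.85 as the mean over the 3 probes. A_43_P12252, which shares 46 of its 60 bases with it as printed above, had 3.42, 2.98, 3.51 and 3.54 in Control and 4.57, 4.61, 4.10 and 4.33 in Dex. Here all Dex arrays were above all Control arrays, with a difference of 1.04 (SE 0.20, 95% interval 0.59 to 1.49; limma adjusted p = 0.0692), and the probe was well above background on 3 Control and 4 Dex arrays.

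The third Entpd1 probe, A_44_P1035058 at chr1:246004113-246004172, had 4.82, 4.42, 4.10 and 4.69 in Control and 6.47, 6.20, 4.95 and 4.82 in Dex. Its difference was 1.11 (95% interval 0.16 to 2.05; limma adjusted p = 0.377), larger in Dex 1 and Dex 2 than in Dex 3 and Dex 4. The overlapping probes differed by 0.64 in their Dex minus Control value (exact two-sided permutation p = 0.143, adjusted 0.429 over the 6 probe pairs). With 4 arrays per group this does not show that the overlapping probes gave the same difference. By probe, the Entpd1 difference ran from 0.40 to 1.11. The member counts use the brightest probe, with means of 4.89 in Control and 5.29 in Dex. Those of the third probe, 4.51 and 5.61, were close, so the choice between them rests on a small margin. The unadjusted limma p was 0.157 for the brightest probe, 0.0266 for the third and 0.000687 for A_43_P12252, which also passed the signal to noise criterion.

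Nt5e, the enzyme that makes adenosine from AMP, had levels of 5.33, 4.95, 5.59 and 5.43 in Control and 5.56, 5.68, 6.54 and 4.96 in Dex. Dex 3 was the highest array, Dex 2 lay just above the Control range, and Dex 1 and Dex 4 lay within it. The difference was 0.36 (95% interval -0.39 to 1.11; limma adjusted p = 0.766). It was 0.08 without Dex 3 and 0.60 without Dex 4, and by scan day it was 0.08 among the 6 arrays and 1.21 between Control 1 and Dex 3.

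Ada had the smallest p of the members. The levels of A_43_P13102 were 15.07, 15.46, 14.93 and 14.93 in Control 1 to 4 and 14.25, 14.10, 13.94 and 14.19 in Dex 1 to 4. Every Dex array was below every Control array, with means of 15.10 ± 0.25 (SD, n = 4) and 14.12 ± 0.14 (SD, n = 4). The difference was -0.98 (SE 0.18, 95% interval -1.38 to -0.57), or 1.97-fold lower in Dex, with a limma adjusted p of 0.0582, the 351st smallest p of all probes. It was -0.92 among the 6 arrays of one scan day and -1.14 between Control 1 and Dex 3.

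The second Ada probe, A_44_P434541, gave 14.77, 15.20, 14.67 and 14.78 in Control and 14.07, 13.90, 13.77 and 13.94 in Dex. Again all Dex arrays lay below all Control arrays. Its difference was -0.93 (SE 0.17, 95% interval -1.32 to -0.54; limma adjusted p = 0.0607), and the 2 Ada probes differed by -0.04 in this value (exact two-sided permutation p = 0.343, adjusted 0.556). No spot on any array was saturated.

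**Figure D2:**
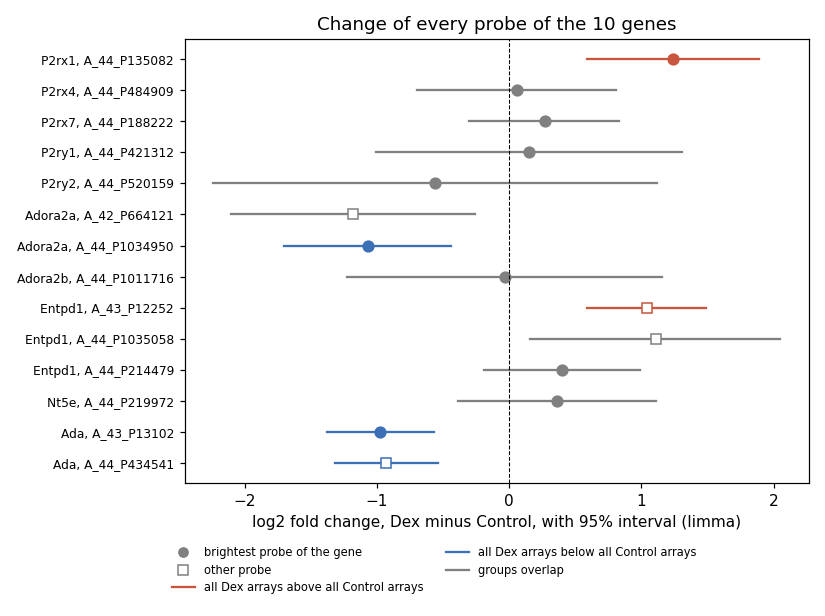
Difference between Dex and Control (x axis, log2 scale, with limma's 95% interval) of all 14 probes (y axis), filled for the brightest probe of a gene and open for the others. Both Ada probes and both Adora2a probes lie below 0, the P2rx1 probe and the 3 Entpd1 probes lie above 0, and the interval of the brightest Entpd1 probe crosses 0.

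For Ada, P2rx1 and Adora2a the threshold call varied with the processing. The Ada difference ran from -1.14 to -0.86 over 20 alternatives and passed in 6. With normexp background correction, where 2.23% of probes passed limma's threshold, Ada was the one member to pass (limma adjusted p = 0.00906). With dim probes left out, where 1.97% of 28476 probes passed, it was again Ada alone (limma adjusted p = 0.0266). With the slide as a random block, where 4.48% passed, the members were P2rx1, Adora2a and Ada. That fit had a within-slide correlation of -0.235. Apart from the slide of Control 1 and Dex 3 no slide held both groups, so the fit does not separate slide from group. With the replicate block, where 0.198% of probes passed, no member did, and the limma adjusted p-values of P2rx1, Adora2a and Ada were 0.155, 0.17 and 0.178. With scaling to the 75th percentile, where 0.405% passed, they were 0.184, 0.354 and 0.523. With the slide as a fixed block the difference rests on Control 1 and Dex 3 alone, the arrays of the one slide that held both groups, and 1 of all 41012 probes passed, so that fit bears little on any member.

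Dex 1 and Dex 2 had 26471 and 24908 probes well above background against 28665 to 34472 on the other 6 arrays, so the fits were repeated without each pair of Dex arrays, a choice made after the data had been seen. Without Dex 1 and Dex 2, where 17.4% of all probes passed, Adora2a (-1.37) and Ada (-1.03) passed. Without Dex 3 and Dex 4, where 18.0% passed, P2rx1 (1.46), Ada (-0.92) and P2ry2, not well above background on those Dex arrays, passed. Over all 20 alternatives the difference ran from 0.84 to 1.49 for P2rx1 and from -1.88 to -0.77 for Adora2a. Alternatives that change the test or the set of probes tested leave the estimate as it is, and leaving out arrays cannot turn the sign where the groups do not overlap, so these ranges are no evidence of stability.

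**Figure D3:**
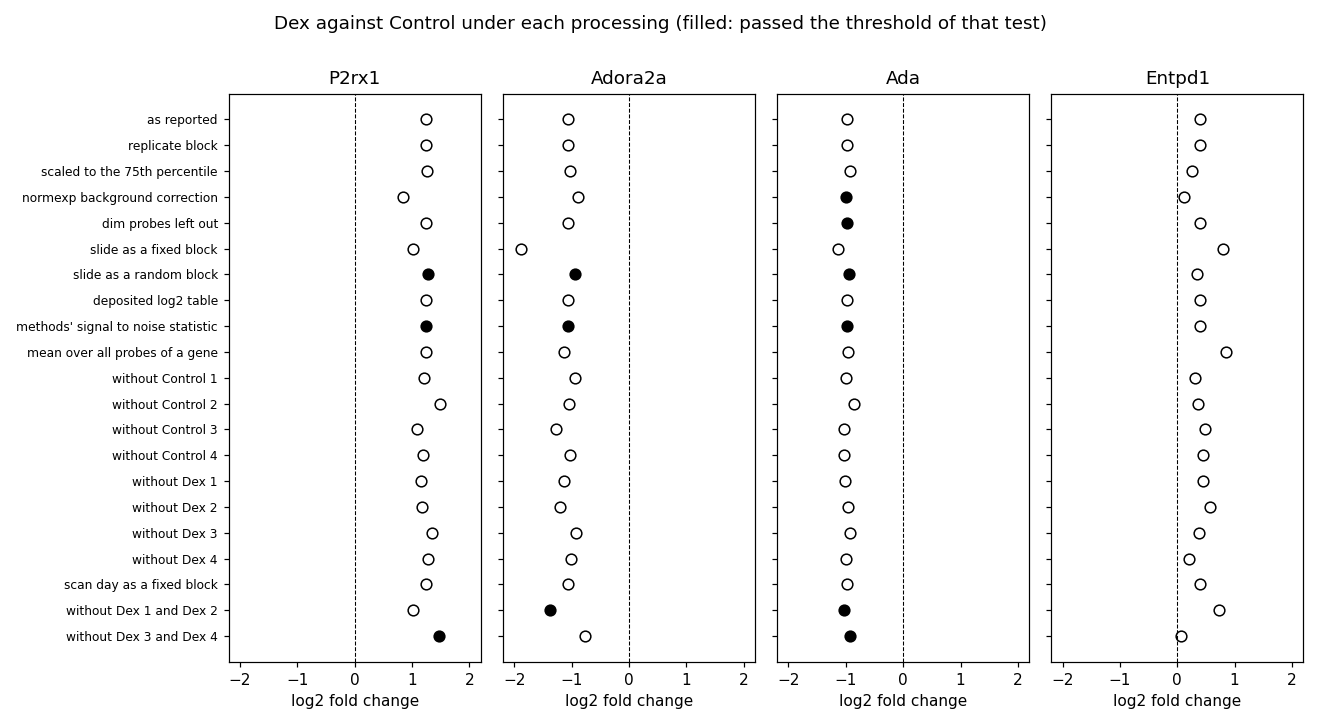
Difference between Dex and Control (x axis, log2 scale) of P2rx1, Adora2a, Ada and Entpd1 (brightest probe of each) as reported and under each of 20 alternatives (y axis), with filled points where the gene passed that test's threshold. P2rx1 and Entpd1 stay above 0 and Adora2a and Ada below 0 throughout, Ada is filled in 6 rows, P2rx1 and Adora2a in 3 each and Entpd1 in none.

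Beyond the 10 members, 54 other genes of purine signaling were listed by role, of which 47 were on the array and 7 are not analysed here. None passed limma's threshold, 5 were higher and 1 lower at an unadjusted limma p below 0.05, and 4 higher and 1 lower had groups that did not overlap, which are also the 4 and 1 past the signal to noise criterion. Of all probes, 10.6% met that unadjusted p and 9.11% did not overlap, so these counts of 6 and 5 among 47 genes lie near the share over the array. Their median difference was 0.05. None of the 4 other P2X channels, 6 other genes named as P2Y receptors and 2 other adenosine receptors had an unadjusted limma p below 0.05. The corresponding counts were 1 of 11 for the ecto-nucleotidases, 1 of 4 for nucleotide release (Gja1, not well above background on any array), 2 of 7 for nucleoside transport and 2 of 13 for intracellular purine enzymes, among which Dpp4, a surface peptidase that binds Ada, was also listed. These are lists too short to set against that share. Genes were placed by name and family, and what each does in these cells was not checked.

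The adenosine transporters Slc29a1 and Slc28a2 had differences of opposite sign. Slc29a1, the equilibrative nucleoside transporter, had levels of 12.18, 11.85, 12.11 and 12.43 in Control and 13.01, 13.08, 12.91 and 12.92 in Dex. All Dex arrays were above all Control arrays, with a difference of 0.84 (SE 0.17; limma adjusted p = 0.082). Slc28a2, a sodium-coupled concentrative transporter for purine nucleosides, had 11.93, 12.27, 11.64 and 12.16 in Control and 11.00, 10.81, 11.16 and 11.59 in Dex, a difference of -0.86 (SE 0.22; limma adjusted p = 0.186).

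A second probe, which matches another Slc28a2 transcript record, had a difference of 0.34 (limma adjusted p = 0.574). The gap between the 2 Slc28a2 probes was -1.19 (exact two-sided permutation p = 0.0286, the smallest that 4 against 4 arrays allow, adjusted 0.172), and this pair was taken up after its values had been seen.

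Of the enzymes, Ampd3, an AMP deaminase, had a difference of 1.09 (SE 0.32; limma adjusted p = 0.24), with Control arrays at 5.97 to 6.69 and Dex arrays at 6.98 to 8.27. Entpd6, a nucleoside diphosphatase of the Golgi that is also secreted, was at 8.74 to 8.86 in Control and 9.22 to 9.64 in Dex, a difference of 0.57 (limma adjusted p = 0.193). Ahcy, which releases adenosine from S-adenosylhomocysteine, was at 12.15 to 12.42 in Control and 12.77 to 12.94 in Dex, a difference of 0.54 (limma adjusted p = 0.171). In all 3 every Dex array lay above every Control array.

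**Figure D4:**
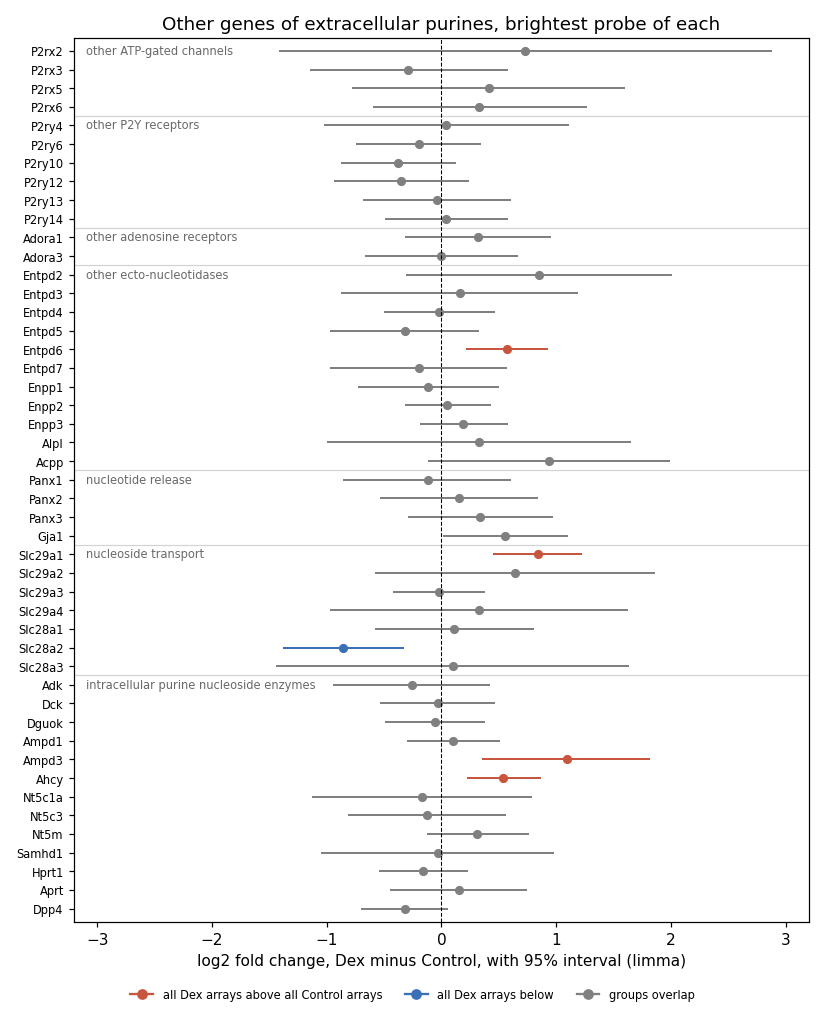
Difference between Dex and Control (x axis, log2 scale, with limma's 95% interval) of the brightest probe of the 47 other purine signaling genes (y axis), grouped by role. The colored genes, Slc29a1, Entpd6, Ampd3 and Ahcy above 0 and Slc28a2 below, are those whose Control and Dex arrays did not overlap.

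The labelled cell type was checked against marker genes, and all 10 double positive thymocyte markers on the array were well above background on every array. The mean log2 level of 9 of them, without Cd8b, which lacks a value on Control 1, was 12.98 to 13.20 in Control and 12.59 to 13 in Dex (exact two-sided permutation p = 0.0857, adjusted 0.171 over 6 lists). Several members are also expressed by phagocytes, endothelium and platelets. Of the 12 macrophage markers on the array 7 were higher and 5 lower in Dex by their mean difference, of 13 listed. Their mean level was 6.17 to 6.31 in Control and 6.33 to 6.68 in Dex, and that of 11 of the 12 stromal and endothelial markers was 4.74 to 4.91 in Control and 5.25 to 5.52 in Dex (exact two-sided permutation p = 0.0286 for each list, adjusted 0.0858). Every Dex array was thus above every Control array in both lists, though with scaling to the 75th percentile in place of quantile normalization the differences of 0.23 for macrophages and 0.49 for stromal and endothelial cells, against 0.27 and 0.59, had exact permutation p-values of 0.429 and 0.314. Without Mrc1, the macrophage marker with the largest difference, which was left out after the data had been seen, the macrophage difference was 0.10 (exact two-sided permutation p = 0.371), and Dex 3, at 6.36, lay below every Control array, at 6.40 to 6.57. Without Pdgfrb, chosen in the same way, the stromal and endothelial difference was 0.48 with no overlap between the groups.

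Single markers within these lists differed widely. Pecam1, an adhesion molecule of endothelium that leukocytes also carry, rose by 1.36 and was the one marker past limma's threshold (limma adjusted p = 0.0208). The macrophage mannose receptor Mrc1 had a difference of 2.12 (limma adjusted p = 0.087) and Cd68 one of -0.12 (limma adjusted p = 0.84). C1qa, C1qb and C1qc had differences of 0.72, 0.84 and 0.97, and Cd14 and Mpeg1 of -0.77 and -0.61 (limma adjusted p of 0.327 or more). Of the double positive thymocyte markers 3 were higher and 7 lower in Dex. Among them Ptcra, at -0.61, and Cd8b, at 0.52, had groups that did not overlap. Of the macrophage markers 9 were well above background on every array, and each of the others was so on at least 1. Of the stromal and endothelial markers 6 were well above background on every array, and 2, Dcn and Tek, on no array. The part of these cells in the P2rx1 and Entpd1 differences was not tested. The lists of B cells (exact two-sided permutation p = 0.857), erythroid cells (p = 0.457) and platelets (p = 0.914) overlapped between the groups.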

How the data were processed

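Cy3-labeled cRNA was made from total RNA by the authors and read on 4 Control and 4 Dex arrays of 1 color. The deposited intensity of each spot was extracted with Feature Extraction 9.5.3.1, per the file headers, which subtracts background within the array and does not normalize between arrays. The deposited flags mark outliers, saturation and signal well above background. A table of log2 values by the authors (log2 transformed, quantile normalized, summarized by median polish) served as an alternative. The same steps were recomputed here on the 43379 non-control spots of an array after spots with outlier flags had been removed, with a correlation of 0.999999 or more to that table, and 16 of the values of the 41012 probes were missing. No value column was left without a sample.

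limma 3.58.1 in R 4.3.3 tested each probe (lmFit, eBayes, two-sided, Benjamini-Hochberg over all probes, threshold 0.05). The methods' signal to noise statistic was recomputed over the 70 ways to assign the arrays. Probes were pooled, with a one-tailed nominal p of 0.01 and a fold of 1.2. Its calls need not match those of the paper. Marker lists and probe pairs were tested by exact permutation over arrays, without pairing of the replicate numbers. The fits were tested on simulated data. The members, the lists and the tests were chosen with earlier results of these data known. All member probes were named, and of the other genes those that passed limma or, since none did, those with no overlap between groups that were well above background in the brighter group.

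The study states 3 biological replicates and 4 arrays per group are deposited. The labels do not say whether the arrays stand for separate cultures, so p-values measure the spread between arrays, which may be technical. Same-numbered arrays deviated together from their group means (r = 0.40, 0.13, 0.55 and 0.18 across probes), all above 0.1. Arrays of unlike number did so as strongly in part (r = 0.40 for Control 1 and Dex 2, 0.39 for Control 3 and Dex 4, 0.19 for Control 2 and Dex 1), so numbers 1 and 2 stood against 3 and 4 rather than each pair alone. The main fit used no pairing, and the numbers served as pairs only in the alternative with the replicate block. Control 1 and Dex 3 shared a slide and a scan day. Control 2 to 4 were on another slide and Dex 1, 2 and 4 on yet another, so on these 2 slides slide and group cannot be told apart. From 24908 to 34472 probes an array were well above background, and 4 arrays per group limit the precision. Probe positions are those of build rn3 in the file headers, and exon and intron annotation of that build was not used here.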

Additional observations from a re-analysis of the deposited data

Results flagged for a closer look

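In 3 of 50 groups of 4 arrays tested for a lone array, one array's gap to its neighbor took up more of the group's range than Dixon's 95% limit for 4 samples, and about 1 in 20 groups would do so by chance. For P2rx7 it was Control 1, at 2.31 against 2.84 to 2.94 on the other Control arrays (ratio 0.834). For P2ry1 it was Dex 1, at 3.21 against 0.97 to 1.19 on the other Dex arrays (ratio 0.902), with the probe not well above background on any of them. For the mean of the double positive thymocyte markers it was Control 2, at 13.20 against 12.98 to 13 on the other Control arrays (ratio 0.884).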

How the results depend on the processing

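Of the 20 alternatives, those by scan day and without pairs of Dex arrays, and the marker lists without their most changed gene, were added after the data had been seen. No member passed limma's threshold, against 1 with normexp, 1 with dim probes left out, 3 with the slide as a random block (within-slide correlation -0.235), 3 by signal to noise, 2 without Dex 1 and Dex 2 and 3 without Dex 3 and Dex 4. For the 47 other purine genes these counts were 3, 1, 5, 5, 7 and 11, where 2.23%, 1.97%, 4.48%, 6.79%, 17.4% and 18.0% of all probes passed. With the replicate block (pairing) no member and none of those genes passed, and leaving out 1 array at a time gave 0 in each case for the members.

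The P2rx4 difference became -0.33 with the slide as a fixed block, -0.50 without Dex 1 and Dex 2 and 0.61 without Dex 3 and Dex 4, and ran from -0.13 to 0.30 over the fits without 1 array. P2rx7 became -0.02 with scaling to the 75th percentile. For P2ry1, not well above background on any array and so without a fold, the fitted value of 0.15 became -0.01 with that scaling, -0.13 with the slide as a fixed block and -0.47 without Dex 1 and Dex 2, and ran from -0.39 to 0.35 without 1 array. P2ry2 became 1.10 with the slide as a fixed block and 0.80 without Dex 1 and Dex 2. Adora2b became 0.02 with normexp, 1.19 with the slide as a fixed block, 0.80 without Dex 1 and Dex 2 and -0.87 without Dex 3 and Dex 4, and ran from -0.32 to 0.28 without 1 array. The cause was not tested.

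The B cell list differed by -0.04 with scaling to the 75th percentile, and without 1 array it ran from -0.15 to 0.25 and the platelet list from -0.18 to 0.18. With that scaling the macrophage and stromal differences were 0.23 and 0.49, against 0.27 and 0.59 (exact permutation p = 0.429 and 0.314 in place of 0.0286). Without its most changed gene the B cell list differed by -0.09, the platelet list by 0.08 and the macrophage list by 0.10 (exact permutation p = 0.371).

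Of all probes limma called 319, against 81 with the replicate block, 166 with scaling to the 75th percentile, 915 with normexp, 562 with dim probes left out, 1 with the slide as a fixed block, 1838 with it as a random block, 190 with the scan day as a block, 7143 without Dex 1 and Dex 2, 7388 without Dex 3 and Dex 4 and 96 to 249 without 1 array, and signal to noise called 2784. Higher in Dex were 231 of the 319, 75 of the 81, 497 of the 915, 1116 of the 1838, 3226 of the 7143, 4072 of the 7388 and 1471 of the 2784. Dim probes limit P2ry1 and P2rx7 most.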
